A study of Mus musculus with 6 samples.

Results

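Fatty acid oxidation in kidney endothelium was followed through 10 genes: the receptors Ppara and Ppard, the carnitine palmitoyltransferases Cpt1a and Cpt2, the acyl-CoA dehydrogenases Acadm, Acadl and Acadvl, the trifunctional protein subunits Hadha and Hadhb, and the kinase Pdk4. They were chosen by gene symbol, and all 10 were found among the 55487 genes of the expression matrix. The I-PpoI group was 3 mice with a VE-cadherin Cre and a Cre-dependent I-PpoI transgene, which encodes an endonuclease that cuts DNA. Its locus is labelled ROSA26-STOP-I-PpoI, ROSA27-STOP-I-PpoI and ROSA28-STOP-I-PpoI in I-PpoI mice 1, 2 and 3. The control group was 3 wild-type littermates. All libraries carry the same batch label. All 6 mice ate chow until 8 weeks of age and then a high-fat diet, with 60% of calories from fat, for 4 weeks. RNA came from cells of collagenase-digested whole kidney that had been taken with magnetic beads against CD31, and VE-cadherin and CD31 are both endothelial surface proteins. The transgene's own RNA was not analysed here. The comparison asks how I-PpoI expression in endothelium of fat-fed mice changed its RNA.

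Long-chain fatty acids are activated to acyl-CoA, carried into mitochondria as acyl-carnitines, and shortened by a repeating cycle of dehydrogenation, hydration, a second dehydrogenation and thiolysis. Fatty acids activate the nuclear receptors PPARα and PPARδ, which drive transcription of many of these genes as partners of the retinoid X receptor. In kidney the pathway is best known from the proximal tubule, whose transport is fuelled by it, while endothelial cells use it for nucleotide synthesis, redox balance and quiescence as well.

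The promoters of all 10 genes were read from RefSeq (GRCm38.p6), from 250 bases before to 50 after the start. The letters AGGTCA, the core hexamer that PPARs and related nuclear receptors bind, were found on either strand in 3 of the 10 promoters and in 16.3% of all 32851 promoters in the RefSeq set. The full direct repeat of this hexamer with 1 base between the copies (DR1), the classical PPAR element, was in 0 of 10 and in 0.0396% of all. A GC box, GGGCGG, was in 7 of 10 and in 35.7% of all; the search counted both strands, and the motifs did not overlap each other in the windows shown. The 3 promoters with the hexamer are shown with that of Hadhb, because Hadhb faces Hadha and the windows of this pair share 228 bases. Capitals mark AGGTCA or GGGCGG on either strand (TGACCT or CCGCCC when read from the other one). The windows lie at chr19:3323051-3323350 on the plus strand (Cpt1a), chr3:153944594-153944893 on the minus strand (Acadm), chr11:70015379-70015678 on the minus strand (Acadvl) and chr5:30155003-30155302 on the plus strand (Hadhb).
Cpt1a: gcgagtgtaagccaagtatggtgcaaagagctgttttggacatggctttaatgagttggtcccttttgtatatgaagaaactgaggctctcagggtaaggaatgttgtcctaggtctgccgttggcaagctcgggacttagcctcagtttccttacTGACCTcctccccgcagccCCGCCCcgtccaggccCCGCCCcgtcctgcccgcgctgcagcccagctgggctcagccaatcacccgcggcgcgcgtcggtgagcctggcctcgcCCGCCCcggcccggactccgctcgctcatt
Acadm: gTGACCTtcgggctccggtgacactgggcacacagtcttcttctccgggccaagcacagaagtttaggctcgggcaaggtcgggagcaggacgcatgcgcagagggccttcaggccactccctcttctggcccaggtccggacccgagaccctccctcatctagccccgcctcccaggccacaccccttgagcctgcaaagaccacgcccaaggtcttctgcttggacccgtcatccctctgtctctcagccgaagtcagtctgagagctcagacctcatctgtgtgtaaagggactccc
Acadvl: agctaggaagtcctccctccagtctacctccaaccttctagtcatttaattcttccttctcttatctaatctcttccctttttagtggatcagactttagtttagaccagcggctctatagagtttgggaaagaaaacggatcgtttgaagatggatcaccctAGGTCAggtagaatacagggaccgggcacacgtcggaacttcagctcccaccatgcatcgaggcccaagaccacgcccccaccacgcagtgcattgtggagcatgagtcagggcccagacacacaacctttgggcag
Hadhb: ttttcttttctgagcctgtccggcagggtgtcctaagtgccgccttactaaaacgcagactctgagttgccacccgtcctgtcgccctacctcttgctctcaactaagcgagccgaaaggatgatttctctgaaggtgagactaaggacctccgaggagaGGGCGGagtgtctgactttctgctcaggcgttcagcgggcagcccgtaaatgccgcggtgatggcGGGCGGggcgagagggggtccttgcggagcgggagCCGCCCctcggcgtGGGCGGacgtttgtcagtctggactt

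Values are FPKM, fragments scaled to exon length and to the library's total, so that levels of different genes can be compared. The libraries stood apart in depth and strand before any gene was compared. Recovered fragments came to 834149 to 13324303 in the I-PpoI group, lowest in mouse 2, and to 14081222 to 16954480 in the controls. In I-PpoI mice 1 and 2, 68.2% and 70.6% of mitochondrial fragments were on minus-strand genes, against 0.0473 to 0.0821% in the other 4 libraries. Mitochondrial genes held 6.42%, 38.2% and 48.2% of fragments in I-PpoI mice 1, 2 and 3, against 8.83%, 15.1% and 18.3% in control mice 1, 2 and 3, and a larger share lowers the FPKM of all other genes. The sex-linked transcripts were unequal too, with Xist listed at 0 in I-PpoI mouse 1, reaching 4.66 FPKM in I-PpoI mouse 2 and 19.8 FPKM in I-PpoI mouse 3, against at most 0.0138 FPKM in the controls, and with Ddx3y at 2.40 FPKM in I-PpoI mouse 1, listed at 0 in I-PpoI mice 2 and 3, and at 13.1 to 19.0 FPKM in the controls. The sorted cells carried their label: Pecam1, which encodes CD31, was at 41.6 to 113 FPKM in I-PpoI and 197 to 256 FPKM in control mice, and Cdh5, which encodes VE-cadherin, at 65.0 to 199 and 266 to 328 FPKM. The 10 genes together held 570, 241 and 7935 fragments in I-PpoI mice 1, 2 and 3, and 12462, 10138 and 12078 in control mice 1, 2 and 3. Part of what follows is therefore measured on few fragments in I-PpoI mice 1 and 2, and the share of those fragments that came from the annotated strand was not tested.

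In the controls the 2 dehydrogenases for long chains were the highest. Acadl averaged 40.7 ± 3.73 FPKM and Acadvl 35.7 ± 5.35 FPKM (SD, n = 3), with overlapping ranges, and 92.7% and 91.6% of the 14962 genes tested had a lower control mean. Cpt1a (22.7 ± 4.37 FPKM) and Acadm (19.9 ± 0.789 FPKM) came next, again with overlapping ranges. Hadha, Hadhb and Cpt2 followed at 13.8, 13.6 and 11.0 FPKM, each overlapping the next. Pdk4 and Ppard, at 7.29 and 5.54 FPKM, overlapped each other, and Ppara was last at 0.398 ± 0.269 FPKM, with a lower control mean in only 11.7% of genes tested. Of the PPAR pair, fat-fed control kidney endothelium thus held mostly Ppard RNA.

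**Figure D1:**
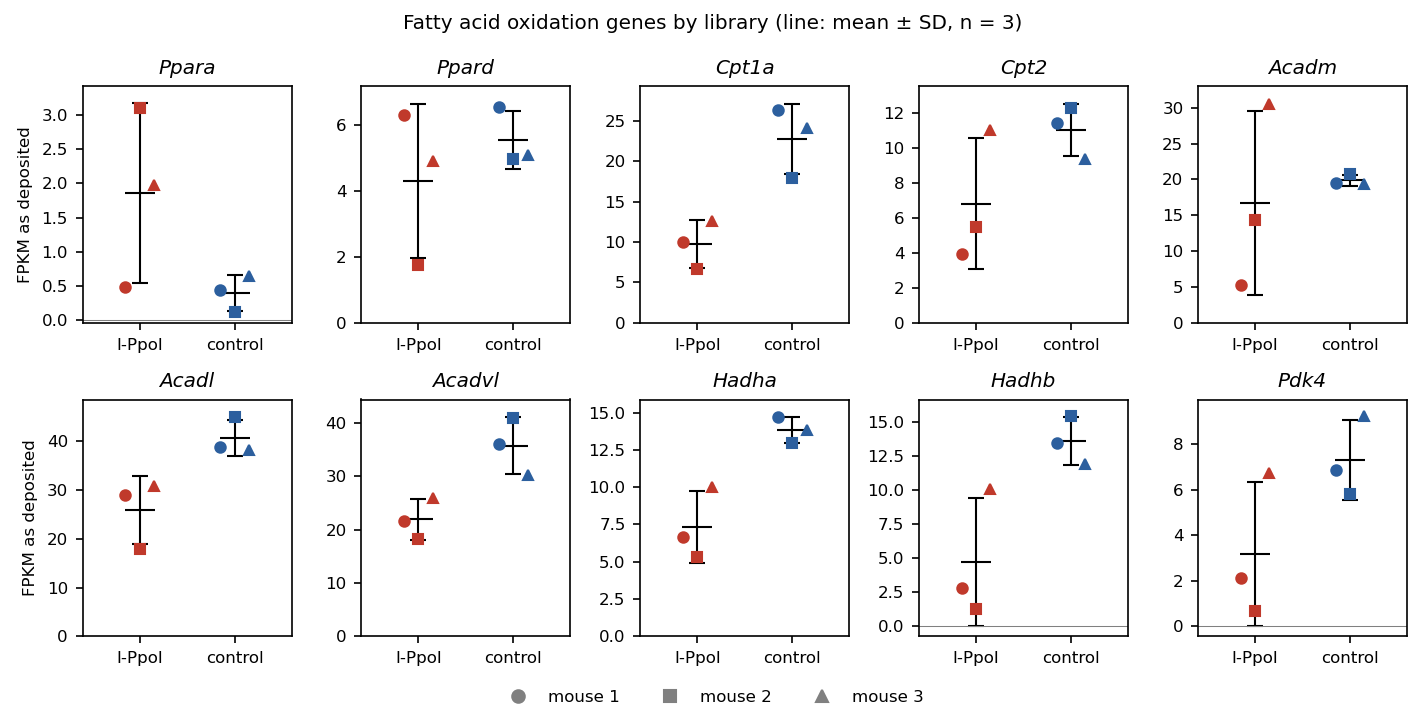
FPKM as deposited (y axis, linear, own scale per gene) of each fatty acid oxidation gene in the 3 I-PpoI and 3 control libraries (x axis). Symbols are mice 1, 2 and 3 of each group, and black lines are the mean ± SD. Cpt1a, Acadl, Acadvl, Hadha and Hadhb lie below all controls in every I-PpoI library, as 45.1% of all genes do before scaling, and Acadm spans 5.26 to 30.6 FPKM in I-PpoI mice.

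The 2 receptors had different patterns over the libraries. Ppara, the PPAR of tissues that burn much fat (ENSMUSG00000022383, GRCm38 chromosome 15, 85734983 to 85802819), had 0.488, 3.11 and 1.98 FPKM in I-PpoI mice 1, 2 and 3, against 0.436, 0.111 and 0.646 FPKM in control mice 1, 2 and 3. I-PpoI mice 2 and 3 were above every control, and I-PpoI mouse 1 was among them. The values of I-PpoI mice 1, 2 and 3 rest on 3, 10 and 101 fragments, and 95% exact Poisson intervals of the first 2 counts, which cover counting error only, were 0.619 to 8.77 and 4.795 to 18.4 fragments; the controls rest on 27, 6 and 42 fragments. Ppard, the PPAR found in most cell types (ENSMUSG00000002250, chromosome 17, 28232700 to 28301474), was at 6.31, 1.75 and 4.90 FPKM in I-PpoI mice, against 6.56, 4.96 and 5.10 FPKM in control mice. These groups overlapped, with I-PpoI mouse 2 far below the rest on 11 fragments.

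Of the carnitine shuttle pair, 1 gene overlapped between the groups as deposited and 1 did not. Cpt1a, the outer-membrane enzyme that malonyl-CoA inhibits and that sets the rate of entry into mitochondria (ENSMUSG00000024900, chromosome 19, 3322334 to 3385733), was at 9.95, 6.72 and 12.6 FPKM in I-PpoI mice, against 26.3, 17.9 and 24.1 FPKM in control mice. As deposited the I-PpoI values lay below all controls, as in 45.1% of all genes tested, and I-PpoI mouse 3 stood at 0.552 of the control mean. With median-of-ratios scaling, which takes out a shift common to most genes and is described with the tests, Cpt1a was at 11.6, 11.4 and 15.1 FPKM in I-PpoI mice, against 18.1, 13.4 and 18.7 FPKM in control mice, and I-PpoI mouse 3 was within the control range. Cpt2, the inner-membrane enzyme that turns acyl-carnitine back into acyl-CoA (ENSMUSG00000028607, chromosome 4, 107903981 to 107923610), was at 3.91, 5.49 and 11.0 FPKM in I-PpoI mice, against 11.4, 12.3 and 9.35 FPKM in control mice. Here I-PpoI mouse 3 was within the control range and I-PpoI mice 1 and 2, with 15 and 11 fragments, were below it.

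The 3 dehydrogenases, which take the first hydrogens from chains of different length, did not share 1 pattern. Acadvl, for very long chains (ENSMUSG00000018574, chromosome 11, 70010183 to 70015411), was at 21.6, 18.2 and 25.9 FPKM in I-PpoI mice, against 36.0, 40.9 and 30.2 FPKM in control mice. Acadl, for long chains (ENSMUSG00000026003, chromosome 1, 66830839 to 66863277), was at 28.9, 17.9 and 30.9 FPKM in I-PpoI mice, against 38.9, 45.0 and 38.3 FPKM in control mice. As deposited both lay below all controls in all 3 I-PpoI mice, as did 45.1% of all genes; with scaling the groups overlapped for both genes, and I-PpoI mouse 3 was above all controls. Acadm, for medium chains (ENSMUSG00000062908, chromosome 3, 153922357 to 153944632), was at 5.26, 14.3 and 30.6 FPKM in I-PpoI mice, against 19.5, 20.8 and 19.4 FPKM in control mice. The controls were nearly equal, while I-PpoI mouse 3 was above and I-PpoI mice 1 and 2 were below them, so this gene spread more among I-PpoI mice than between the group means.

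The mitochondrial trifunctional protein, which carries out the last steps of the long-chain cycle, is built from an α subunit with hydratase and dehydrogenase activity (Hadha) and a β subunit with thiolase activity (Hadhb). Hadha (ENSMUSG00000025745, chromosome 5, 30118304 to 30155162) was at 6.64, 5.33 and 10.01 FPKM in I-PpoI mice, against 14.7, 13.0 and 13.8 FPKM in control mice. Hadhb (ENSMUSG00000059447, chromosome 5, 30155248 to 30184593) was at 2.84, 1.27 and 10.07 FPKM in I-PpoI mice, against 13.5, 15.4 and 11.9 FPKM in control mice. Both were below all controls in each I-PpoI mouse as deposited (45.1% of all genes were), and with scaling the groups overlapped, with I-PpoI mouse 3 above all controls. Hadhb had 30 and 7 fragments in I-PpoI mice 1 and 2. Pdk4, the kinase that switches off pyruvate dehydrogenase when fat is burned and a textbook PPAR target (ENSMUSG00000019577, chromosome 6, 5483351 to 5496309), was at 2.13, 0.680 and 6.73 FPKM in I-PpoI mice, against 6.86, 5.81 and 9.21 FPKM in control mice. I-PpoI mouse 3 was within the control range, and the value of I-PpoI mouse 2 rests on 2 fragments (95% exact Poisson interval 0.242 to 7.22).

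None of the 10 genes passed when the groups were compared with limma on log2(FPKM + 1) with Benjamini-Hochberg adjustment over all 14962 genes whose mean reached 1 FPKM. All 10 met that filter; 0 passed adjusted p under 0.05, as did 0 of all genes (0%). Cpt1a had the smallest p, at a log2 fold change of -1.16 (SE 0.35, adjusted p = 0.132), lower in 3 of 3 I-PpoI mice. Hadhb was at -1.66 (SE 0.60, adjusted p = 0.132) and Hadha at -0.87 (SE 0.33, adjusted p = 0.134), and the other 7 genes had adjusted p of 0.138 to 0.478. At unadjusted p under 0.05, 3 of 10 genes were lower (Cpt1a, Hadha and Hadhb), beside 32.2% of all genes tested, and 0 were higher, beside 4.23%. In 5 of 10 genes all I-PpoI values lay under all control values, beside 45.1% of all genes, and in 0 of 10 they lay above, beside 2.24%. The median over the 10 genes was -0.70, and over all genes tested it was -0.65, so the FPKM of the typical gene was lower in I-PpoI libraries by almost as much. Leaving out I-PpoI mouse 3 keeps the 2 shallow I-PpoI libraries, both with mostly minus-strand mitochondrial fragments. In that fit 6 of the 10 genes passed, all lower (Cpt1a, Cpt2, Acadvl, Hadha, Hadhb and Pdk4), beside 36.6% of all genes lower. On the higher side 0 of 10 passed, beside 19.8%.

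That common shift was taken out by median-of-ratios scaling, which divides each library by its typical ratio to the others and brought the median over all genes to 0.02. With scaling, 0 of 10 fatty acid oxidation genes and 0 of all genes (0%) passed, and the median over the 10 genes was 0.09. At unadjusted p under 0.05 these scaled values gave 0 of 10 lower, beside 2.87% of all genes, and 0 higher, beside 5.43%. Cpt1a was then at -0.37 (SE 0.27, limma adjusted p = 0.453), Hadhb at -0.97 (SE 0.57, 0.368) and Pdk4 at -0.63 (SE 0.57, 0.526). Acadl, Acadvl, Acadm, Cpt2 and Ppard turned from below 0 as deposited to 0.16, 0.14, 0.27, 0.04 and 0.27. Ppara stayed above 0 (1.32, SE 0.54, adjusted p = 0.318), and its 3 scaled I-PpoI values, 0.566, 5.28 and 2.38 FPKM, were above the scaled control values of 0.300, 0.0835 and 0.503 FPKM. It was the 1 gene of the 10 without overlap on this scale on the higher side, beside 7.65% of all genes; 0 of 10 were without overlap on the lower side, beside 9.76%. With 3 fragments in I-PpoI mouse 1, the separation of Ppara is within the counting error of that library. Limma-voom on recovered fragments gave Ppara 3.11 (SE 0.81, adjusted p = 0.916), and its adjusted p was 0.146 to 0.916 over the alternatives.

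**Figure D2:**
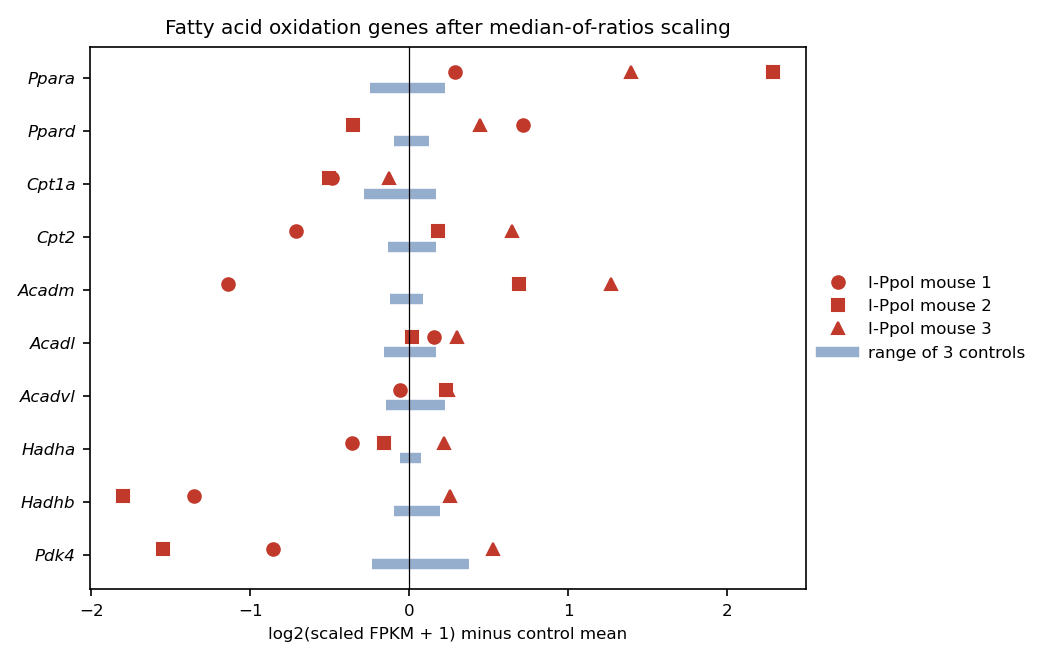
Difference of log2(scaled FPKM + 1) from the control mean (x axis) for each fatty acid oxidation gene (rows), with median-of-ratios scaling. Red symbols are I-PpoI mice 1, 2 and 3 and blue bars the range of the 3 controls. I-PpoI mouse 3 lies right of all controls for each gene but Cpt1a, while I-PpoI mice 1 and 2 lie far left for Hadhb and Pdk4.

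I-PpoI mouse 3, whose mitochondrial strand share was like that of the controls and whose depth was near theirs, was also read alone. Its mitochondrial share of 48.2% was above theirs, its Xist RNA was above all controls and its Ddx3y RNA was below them. The part of sex in its values was not tested. With scaling, 9 of the 10 genes in I-PpoI mouse 3 were above all 3 controls, beside 22.2% of all genes tested, and 0 were below, beside 26.1%; Cpt1a was within the control range. As deposited, 2 of 10 (Ppara and Acadm) were above, beside 6.17% of all genes, and 6 of 10 were below, beside 70.7%, so the count depends on the scaling. Scaled Acadm was at 36.8 FPKM in I-PpoI mouse 3, against 13.4, 15.6 and 15.1 FPKM in control mice 1, 2 and 3. Scaled Cpt2 was at 13.2 FPKM in I-PpoI mouse 3, against 7.87, 9.22 and 7.28 FPKM in the controls. For I-PpoI mouse 3 alone against the controls, the log2 fold change of Acadm was 1.27 with scaling and 0.60 as deposited. A single library has no spread of its own, so these are effect sizes only.

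Markers of other kidney cells were read beside these values. The proximal tubule markers, 15 genes, summed to 200.2, 1003 and 1752 scaled FPKM in I-PpoI mice 1, 2 and 3 and to 285, 854.5 and 289.3 scaled FPKM in control mice 1, 2 and 3. Of them, 14 of 15 were above all controls in I-PpoI mouse 3, 12 of 15 in I-PpoI mouse 2 and 1 of 15 in I-PpoI mouse 1, with scaling. Of all genes tested, 22.2% were above all controls in I-PpoI mouse 3 on this scale. That share was not counted for I-PpoI mice 1 and 2. Lrp2, which encodes the tubule receptor megalin, was at 0.784, 14.3 and 66.5 FPKM as deposited in I-PpoI mice, against 2.33, 3.65 and 3.12 FPKM in control mice. The phosphate transporter gene Slc34a1 was at 22.4, 103 and 156 FPKM in I-PpoI mice, against 67.3, 70.8 and 32.2 FPKM in control mice. The 9 leukocyte markers summed to 99.9, 343 and 234 scaled FPKM in I-PpoI mice, against 22.3, 130 and 160 scaled FPKM in control mice, with 8 of 9 above all controls in I-PpoI mouse 3. For endothelial markers that count was 0 of 15, for podocyte markers 0 of 4, for mural and fibroblast markers 2 of 8 and for distal nephron markers 4 of 10. The 15 endothelial markers summed to 2766, 1636 and 1874 scaled FPKM in I-PpoI mice, against 2271, 2670 and 2462 scaled FPKM in control mice. I-PpoI mice 2 and 3 were thus below all controls and I-PpoI mouse 1 above them. Of the 4 adipocyte markers, Adipoq, Plin1 and Lep were listed at 0 in every library and Cfd reached 0.0771 FPKM in 1 control. In bulk RNA a change in the share of a cell type cannot be told apart from a change of RNA per cell, and the part of tubule RNA in the fatty acid oxidation values was not tested.

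Genes facing the fatty acid oxidation genes were read as well, given the strand shares of I-PpoI mice 1 and 2. A gene on the opposite strand lay within 5 kb in 7 of the 10, and it shared exon bases with Acadvl (Dvl2, 1151 bases) and Hadha (Garem2, 75 bases). Dvl2, a Wnt signal transducer, had 89.2, 88.1 and 2.16 FPKM in I-PpoI mice 1, 2 and 3, against 3.76, 3.90 and 2.66 FPKM in control mice 1, 2 and 3. It was high in the 2 I-PpoI libraries with mostly minus-strand mitochondrial fragments. How far reads of the wrong strand set the values of the fatty acid oxidation genes in these libraries was not tested. Garem2 was at 0.484 FPKM in I-PpoI mouse 1 and listed at 0 in the other 5 libraries. Acadm, Ppard and Pdk4 had no such neighbour.

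**Figure D3:**
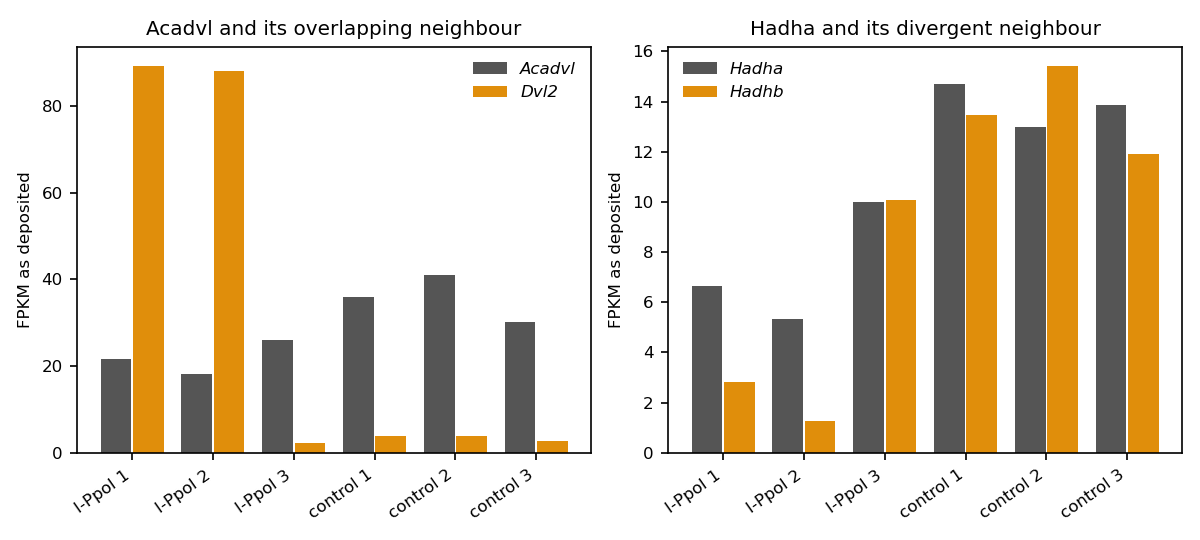
FPKM as deposited (y axis, linear) in each library (x axis) of Acadvl with Dvl2, whose exons overlap on the opposite strand (left), and of Hadha with Hadhb, which start 85 bases apart and run in opposite directions (right). Dvl2 stands at 89.2 FPKM in I-PpoI mouse 1, at 88.1 FPKM in I-PpoI mouse 2 and at 2.16 to 3.90 FPKM elsewhere, and Hadhb stands at 2.84 FPKM in I-PpoI mouse 1 and 1.27 FPKM in I-PpoI mouse 2, against 11.9 to 15.4 FPKM in the controls.

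Differences between a pair of genes within a library do not depend on how the library is scaled, apart from the pseudocount of 1. The 4 pairs chosen were compared on the log2(FPKM + 1) scale by exact two-sided permutation tests, whose smallest p is 0.10 for 3 against 3. Hadha minus Hadhb was 0.99, 1.48 and -0.01 in I-PpoI mice 1, 2 and 3, against 0.12, -0.23 and 0.20 in control mice 1, 2 and 3; the group means differed by 0.79 (exact p = 0.30, adjusted over 4 pairs 0.40), by 0.46 without I-PpoI mouse 2 and by 1.21 without I-PpoI mouse 3. The trifunctional subunits were near equal in the controls and in I-PpoI mouse 3. They were unequal only in the I-PpoI libraries of low depth, which also had mostly minus-strand mitochondrial fragments. I-PpoI mouse 3 alone differed from the controls by -0.04. Cpt1a minus Cpt2 was 1.16, 0.25 and 0.17 in I-PpoI mice, against 1.13, 0.51 and 1.28 in control mice, a difference of -0.45 (exact p = 0.30, adjusted 0.40). It was -0.76 without I-PpoI mouse 1, -0.27 without I-PpoI mouse 3, -0.68 without control mouse 2, -0.29 without control mouse 3 and -0.80 with I-PpoI mouse 3 alone. Acadm minus Acadvl was -1.85, -0.33 and 0.23 in I-PpoI mice, against -0.85, -0.94 and -0.62 in control mice, a difference of 0.16 (exact p = 0.90). It was 0.76 without I-PpoI mouse 1, -0.0065 without I-PpoI mouse 2, -0.28 without I-PpoI mouse 3, 0.085 without control mouse 2, 0.25 without control mouse 3 and 1.03 with I-PpoI mouse 3 alone. In this pair the medium-chain gene led in I-PpoI mouse 3 and the very-long-chain gene in the other 5 libraries. Ppara minus Ppard was -2.30, 0.58 and -0.99 in I-PpoI mice, against -2.40, -2.42 and -1.89 in control mice, a difference of 1.34 (exact p = 0.20, adjusted 0.40), which was 2.03 without I-PpoI mouse 1, 0.59 without I-PpoI mouse 2 and 2.37 with a pseudocount of 0.1. I-PpoI mice 2 and 3 lay above the control range, and I-PpoI mouse 1 within it.

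The rest of the pathway was read from 7 lists with 79 genes, of which 69 met the filter. None passed the limma threshold in either direction; at unadjusted p under 0.05, 16 of 69 were lower (beside 32.2% of all genes) and 1 was higher, Acaa1b (beside 4.23%). Of other mitochondrial β-oxidation and carnitine genes, 0 of 18 passed. As deposited, 18 of 18 were below 0 (median -0.65), beside 10711 of all 14962 genes tested. With scaling 7 were below and 11 above 0 (median 0.05), beside 7361 and 7601 of all genes. The 3 most abundant were Acaa2, a thiolase of the last step, at 38.5 ± 14.4 FPKM in I-PpoI and 62.3 ± 17.0 FPKM in control mice (SD, n = 3 each), Etfa, a subunit of the electron acceptor of the dehydrogenases, at 17.6 ± 9.48 and 29.3 ± 5.50 FPKM, and Acads, the short-chain dehydrogenase, at 15.03 ± 3.46 and 20.2 ± 4.36 FPKM. Their limma adjusted p values were 0.193, 0.213 and 0.343.

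Peroxisomal β-oxidation, which shortens very long chains before they reach mitochondria, held the 1 gene higher at unadjusted p. Of 11 genes tested 0 passed, 9 were below and 2 above 0 as deposited (median -0.75), and 7 below and 4 above with scaling (median -0.05). Over all 14962 genes, 10711 were below 0 as deposited and 7361 with scaling. Scp2, a sterol carrier and thiolase, was at 23.3 ± 13.8 FPKM in I-PpoI and 42.9 ± 6.92 FPKM in control mice (SD, n = 3 each). Hsd17b4, a bifunctional enzyme of the pathway, was at 9.31 ± 6.82 FPKM in I-PpoI and 22.6 ± 1.84 FPKM in control mice. Acaa1b, a peroxisomal thiolase named after its values were seen, was at 8.90, 41.4 and 21.6 FPKM in I-PpoI mice, against 1.92, 5.79 and 3.31 FPKM in control mice. All 3 I-PpoI values were above all controls on both scales, beside 2.24% of all genes as deposited and 7.65% with scaling. The log2 fold change was 2.26 (limma adjusted p = 0.132), and 2.98 with scaling (0.318). Acaa1b has a near-identical paralog, Acaa1a, and shares 224 exon bases with Dlec1 on the other strand, so its reads may be split or mixed.

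PPAR partners and coregulators had 0 of 9 past the threshold, with a median of -0.41 as deposited and 0.09 with scaling. The retinoid X receptor genes Rxra and Rxrb were at 9.16 ± 1.13 and 8.21 ± 3.52 FPKM in I-PpoI mice, against 16.1 ± 2.27 and 17.9 ± 1.99 FPKM in control mice (SD, n = 3 each). Their log2 fold changes were -0.75 and -1.12 as deposited, and 0.04 and -0.34 with scaling. Other PPAR targets had 0 of 9 past the threshold, with medians of -0.23 and 0.47. Ucp2, a mitochondrial carrier, was at 19.0 ± 6.17 FPKM in I-PpoI and 37.5 ± 3.72 FPKM in control mice, and the lipid droplet gene Plin2 at 7.72 ± 2.87 and 14.9 ± 3.39 FPKM. For Ucp2 and Plin2 the log2 fold changes were -0.99 and -0.91 as deposited, and -0.17 and -0.14 with scaling. As deposited, 7 of 9 partners and 6 of 9 targets were below 0, beside 10711 of all 14962 genes. With scaling 6 of 9 in each list were above 0, beside 7601 of all genes.

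Pyruvate dehydrogenase and its regulators, which Pdk4 acts on, had 0 of 12 past the threshold and 12 of 12 below 0 as deposited (median -0.90). With scaling 8 were below and 4 above 0 (median -0.26). Over all 14962 genes, 10711 were below 0 as deposited and 7361 with scaling. Pdha1, the subunit that Pdk4 phosphorylates, was at 23.8 ± 9.09 FPKM in I-PpoI and 34.3 ± 0.492 FPKM in control mice (SD, n = 3 each). Pdk2, another kinase of the complex, was at 17.2 ± 6.09 and 21.98 ± 4.61 FPKM, and Dld, its dihydrolipoamide dehydrogenase, at 8.13 ± 7.83 and 21.9 ± 3.56 FPKM. Of the pathway genes, 48 of 79 had an opposite-strand gene within 5 kb, Pdha1 and Pdk2 among them. Map3k15, a kinase gene that shares 603 exon bases with Pdha1 on the other strand, had 147, 237 and 1.38 FPKM in I-PpoI mice 1, 2 and 3, against 0.769, 0.637 and 0.801 FPKM in control mice 1, 2 and 3.

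**Figure D4:**
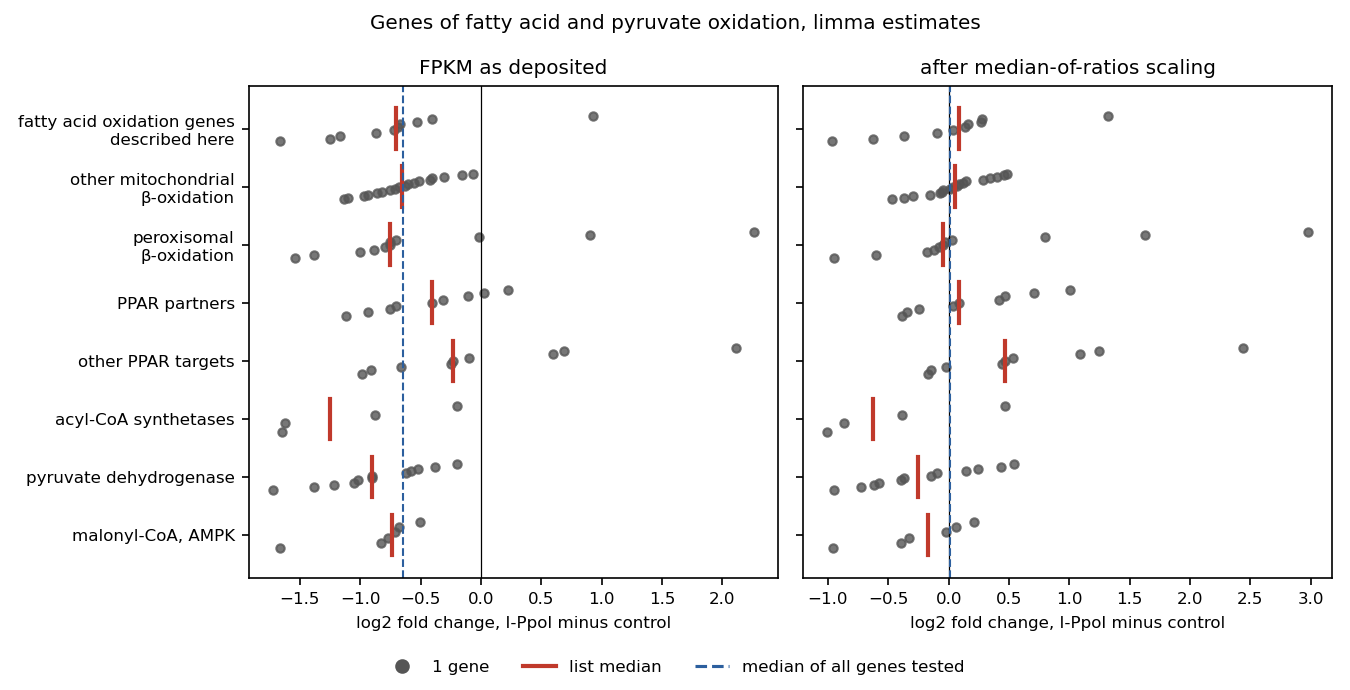
Log2 fold change of I-PpoI minus control on the log2(FPKM + 1) scale (x axis) for every tested gene (points) of the fatty acid oxidation genes and 7 pathway lists (rows), as deposited (left) and with median-of-ratios scaling (right). Red lines are list medians and the blue dashed line is the median of all genes tested, -0.65 on the left and 0.02 on the right; no gene shown passed the threshold.

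The mean scaled profile of the 10 genes, centred per gene on the log2 scale, was -0.39, -0.10 and 0.51 in I-PpoI mice 1, 2 and 3, against -0.04, -0.02 and 0.04 in control mice 1, 2 and 3. I-PpoI mouse 1 was thus lowest and I-PpoI mouse 3 highest, with the controls close together between them. Each of the 10 genes is part of this mean, which raises its correlation with the mean. Hadha (Pearson r = 0.94), Cpt2 (0.89) and Acadm (0.87) followed the mean most closely over the 6 libraries, and Ppard did not (-0.03). Among other protein-coding genes the 5 most like it were Galnt14 (0.996), Entpd5 (0.996), Nedd4l (0.992), Lipa (0.986) and Scpep1 (0.982), picked as the highest of those tested, with clone names left out. These are descriptions over 6 libraries that share depth and strand differences.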

How the data were processed

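RNA of CD31-sorted kidney cells was measured in 3 I-PpoI and 3 control mice, by 100-cycle paired-end sequencing (per the labels' protocols). The authors deposited FPKM for 55487 genes, normalized by them to exon length and counted fragments, and the submitters' processing notes name DESeq2 and the builds mm10 and GRCm38. How reads were aligned and counted, and on which strand, is not given in the sources used here. Coordinates are those of the file; exon lengths and opposite-strand genes come from GENCODE M21, which holds 55227 of its gene IDs.

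FPKM times exon length gave whole fragments, within 0.05, for 98.5 to 98.6% of values under 1000 fragments. These fragments gave depth and counting error. Limma was fitted to log2(FPKM + 1) of the 14962 genes whose mean reached 1 FPKM, and p-values were adjusted by Benjamini-Hochberg and called under 0.05; this scale understates the change of low genes. Recovery of known changes by this fit was tested on simulated data, drawn from the control means at the depth of each library. The simulated data held no strand, sex or cell type difference, so recovery in the presence of these was not tested. Tables used pandas 2.3.3 and numpy 2.4.6 under python 3.11.15, exact tests scipy 1.17.1, plots matplotlib 3.10.9, and fits limma 3.58.1 in R 4.3.3.

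The genes, lists and tests were chosen with earlier results of these data known. Genes named are the 10 fatty acid oxidation genes, the 3 of highest control mean in each list (some of these are not reported here), cell type, sex and strand checks, and the 5 genes of most similar profile; Acaa1b, the opposite-strand neighbours and the adipocyte markers were named after their values were seen. Alternatives covered pseudocounts, filters, scalings, array weights, the replicate block, each library left out, I-PpoI mouse 3 alone and limma-voom.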

Additional observations from a re-analysis of the deposited data

How the results depend on the processing

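The number of fatty acid oxidation genes past the threshold (0) became 3 with each library rescaled to a common FPKM total (Cpt1a, Hadha and Hadhb, all lower) and 4 with array weights (these and Pdk4, all lower), and was 0 to 6 with 1 library left out, where only the fit without I-PpoI mouse 3 made calls (Cpt1a, Cpt2, Acadvl, Hadha, Hadhb and Pdk4, lower). Over all genes the count of 0 became 5153 (4738 lower), 6747 (3962 lower) and 0 to 8438 (at most 5482 lower) under these settings, and over pathway genes 19, 17 and 0 to 31. With I-PpoI mouse 3 alone and median-of-ratios scaling, chosen after seeing the data, 1 gene passed, Ugt1a2, which was named after its values were seen. All other alternatives called 0, among them pseudocounts of 0.1 and 0.5, no filter, 5 FPKM, nuclear protein-coding totals and limma-voom; in the limma fit as reported 5457 genes had unadjusted p under 0.05.

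Direction turned for 8 of the 10 genes under some setting run, all but Cpt1a and Ppara. With median-of-ratios scaling the log2 fold change was 0.27 for Ppard, 0.039 for Cpt2, 0.27 for Acadm, 0.16 for Acadl and 0.14 for Acadvl. With limma-voom it was 0.54 for Ppard, 0.44 for Cpt2, 0.50 for Acadm, 0.24 for Acadl, 0.16 for Acadvl and 0.26 for Pdk4. With I-PpoI mouse 3 alone it was 0.0071 for Cpt2 and 0.60 for Acadm, and with scaling as well 0.45 for Ppard, 0.65 for Cpt2, 1.27 for Acadm, 0.30 for Acadl, 0.24 for Acadvl, 0.22 for Hadha, 0.26 for Hadhb and 0.53 for Pdk4. With 1 library left out the ranges were -0.69 to 0.014 for Ppard, above 0 without I-PpoI mouse 2, and -1.09 to 0.076 for Acadm, above 0 without I-PpoI mouse 1. Within libraries, Hadha minus Hadhb was -0.037 with I-PpoI mouse 3 alone, and Acadm minus Acadvl was -0.28 to 0.76 with 1 library left out, below 0 without I-PpoI mouse 2 or 3. The cause was not tested.

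Same-numbered libraries of the groups correlated at 0.09, 0.06 and -0.02 in their deviations, so the numbers were not taken as pairs. The replicate block called 0 genes, 0 fatty acid oxidation genes and 0 pathway genes. The 241 fragments of the 10 genes in I-PpoI mouse 2 limit every value there.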

Other observations

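Acyl-CoA synthetases and the malonyl-CoA and AMPK genes that gate fat entry were also read. Acsl5, which activates long-chain fatty acids, had 4.999, 5.40 and 14.8 FPKM in I-PpoI mice 1, 2 and 3, against 25.6, 26.2 and 24.99 FPKM in control mice 1, 2 and 3. As deposited every I-PpoI value was below the closely matched controls, as in 45.1% of all genes tested. The log2 fold change was -1.65 (limma adjusted p = 0.132), and -0.87 with scaling. With scaling, 0 of the 4 synthetases tested had all I-PpoI values below all controls, beside 9.76% of all genes. Acsl5 shares 404 exon bases with Zdhhc6 on the other strand, which had 47.3, 28.2 and 2.80 FPKM in I-PpoI mice 1, 2 and 3, against 4.53, 3.89 and 3.76 FPKM in control mice 1, 2 and 3. Of 4 synthetases tested 0 passed, with a median log2 fold change of -1.25 as deposited and -0.63 with scaling. Over all genes tested the medians were -0.65 and 0.02. Acsl4 was at 2.45 ± 2.59 FPKM in I-PpoI and 7.99 ± 1.48 FPKM in control mice (SD, n = 3 each) and Acsl1 at 3.84 ± 2.70 and 3.93 ± 0.522 FPKM. Of 6 malonyl-CoA and AMPK genes 0 passed, with a median of -0.74 as deposited and -0.17 with scaling. Prkaa1, a catalytic subunit of AMPK, was at 4.06 ± 2.98 FPKM in I-PpoI and 13.4 ± 0.226 FPKM in control mice, Mlycd, which breaks down malonyl-CoA, at 5.59 ± 1.56 and 9.498 ± 1.97 FPKM, and the synthase gene Fasn at 4.16 ± 0.608 and 6.42 ± 1.68 FPKM.

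Of the 9 other PPAR target genes tested, 4 were above all controls, 4 below and 1 within their range in I-PpoI mouse 3 as deposited. Of all genes tested, 6.17% were above and 70.7% below. With scaling 5 were above, 1 below and 3 within, beside 22.2% of all genes above and 26.1% below. Angptl4, a secreted lipase inhibitor, was below all controls on both scales, at 1.93 FPKM as deposited in I-PpoI mouse 3, against 5.23, 3.27 and 4.03 FPKM in control mice. It and the genes that follow were named after their values were seen. Cyp4a14, a fatty acid ω-hydroxylase, was listed at 0 in I-PpoI mouse 1 and reached 4.13 FPKM in I-PpoI mouse 2 and 20.5 FPKM in I-PpoI mouse 3, against at most 0.204 FPKM in control mice. Its relative Cyp4a10 was listed at 0 in I-PpoI mouse 1 and reached 1.70 FPKM in I-PpoI mouse 2 and 17.0 FPKM in I-PpoI mouse 3, against 0.910, 2.80 and 0.923 FPKM in control mice. Ehhadh, the peroxisomal bifunctional enzyme, was at 2.51, 12.4 and 23.3 FPKM in I-PpoI mice, against 4.07, 5.08 and 4.71 FPKM in control mice. None passed the limma threshold, and reads of Cyp4a paralogs may be shared. A further relative, Cyp4a12a, did not meet the filter and went the other way. It was at 0.772, 0 and 0.155 FPKM in I-PpoI mice, against 1.15, 1.17 and 1.05 FPKM in control mice. In I-PpoI mice 2 and 3 proximal tubule markers were high, Xist was above the controls and Ddx3y was listed at 0. The part of tubule RNA or of sex in these values was not tested.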
